A study of Homo sapiens with 12 samples.

Results

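The genes described here are 10 heat shock chaperones and co-chaperones of the cytosol and the mitochondrion: HSPA1A, HSPA1B, HSPA8, HSP90AA1, HSPH1, DNAJB1, HSPB1, BAG3, HSPD1 and HSPE1. They were taken by gene name from a table of raw RNA sequencing counts of 57500 genes, and each name had 1 row. The libraries came from MRC5 human embryonic lung fibroblasts and fell into 4 groups of 3. Proliferating cells (Prol) were compared with cells made senescent by 20 Gy of X-rays (Sen(IR)) and with irradiated cells that also received UK5099, an inhibitor of the mitochondrial pyruvate carrier (Sen(IR)+UK5099), or CTPI2, an inhibitor of the mitochondrial citrate carrier SLC25A1 (Sen(IR)+CTPI2). The methods give 100 μM for UK5099 and 15 or 30 μM for CTPI2, without saying which CTPI2 dose was sequenced, and both inhibitors were added 1 day after irradiation and kept for 12 days. No inhibitor was given to unirradiated cells among these libraries, and neither the labels nor the methods mention a heat treatment or a vehicle control. The study calls the RNA sequencing replicates independent. The p-values set a group difference against the spread between replicate libraries, estimated over all 4 groups together.

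Heat shock proteins bind unfolded or newly made proteins and help them to fold, to avoid clumping or to be degraded. In the cytosol, HSP70 proteins receive their clients from J-domain proteins, release them with the help of exchange factors, and pass some of them on to HSP90. In the mitochondrial matrix, imported proteins fold inside the chamber formed by HSP60 (HSPD1) and its lid HSP10 (HSPE1). Under proteotoxic stress, heat shock factor 1 (HSF1) binds repeats of the unit GAA and its complement TTC in front of many of these genes and raises their transcription. Some members, among them HSPA8, are made in quantity in unstressed cells, whereas HSPA1A and HSPA1B are best known as stress-induced genes.

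The libraries held between 20597736 and 28245693 counts each. Summed over the 10 genes, the share of a library was 0.614 to 0.693% for Prol, 0.473 to 0.479% for Sen(IR), 0.567 to 0.589% for Sen(IR)+UK5099 and 0.462 to 0.494% for Sen(IR)+CTPI2. Prol replicate 2 had the lowest share of the Prol libraries. All 10 fibroblast markers checked were expressed in every library, with COL1A1 at 1504 to 7213 CPM (counts in every 1e+06, after scaling library sizes by TMM), and their summed level was 15610 to 16740 CPM with UK5099 against 23340 to 29170 CPM in the other 9 libraries. Of 5 epithelial markers none exceeded 1.283 CPM, and the T cell gene CD3E and the leukocyte gene PTPRC stayed at or under 0.310 CPM, while the monocyte gene CD14 reached 4.87 CPM. Of 5 endothelial markers only TEK exceeded 1.114 CPM, at 153.7 to 365.6 CPM. The part of these marker levels in the differences given here was not tested. In bulk RNA, a difference in a gene's level per cell cannot be told apart from a difference in the share of cells that express it.

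The heat shock element is shown first because it is the sequence feature that these genes are known to share. In the RefSeq promoter windows (GRCh38.p14, 250 bases before to 50 bases after each annotated start), a pair of facing units, GAANNTTC or TTCNNGAA, which reads the same on both strands and was searched over the whole window, occurred in 7 of the 10 member genes, against 16.177% of the 27305 genes with a window. By window, the pair occurred in 8 of 14 member windows and in 13.49% of all 35116. A run of 3 adjoining units, GAANNTTCNNGAA or its complement TTCNNGAANNTTC, each of which contains the pair, occurred in 3 member genes, HSPD1, HSPA8 and HSP90AA1, against 0.608% of all genes. Stretches around some of these matches are given below, at least 1 for each gene that holds one, 5′ to 3′ on the strand of the gene. Positions are counted from an annotated start whose window holds the match, and the units of each match are in capitals.

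HSPA1A, chr6:31815393-31815542, plus strand, positions -150 to -1: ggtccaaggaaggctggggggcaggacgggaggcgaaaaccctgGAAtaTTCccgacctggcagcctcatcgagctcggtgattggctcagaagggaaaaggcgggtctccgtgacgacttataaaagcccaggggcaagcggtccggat
HSPA1B, chr6:31827589-31827737, plus strand, positions -149 to -1: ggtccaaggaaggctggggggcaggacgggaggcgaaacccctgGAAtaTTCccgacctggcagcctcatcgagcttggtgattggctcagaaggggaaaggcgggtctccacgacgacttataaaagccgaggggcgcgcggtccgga
HSP90AA1, chr14:102087095-102087144, minus strand, positions -100 to -51: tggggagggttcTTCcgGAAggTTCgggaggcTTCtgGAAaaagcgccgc
HSPA8, chr11:123062172-123062201, minus strand, positions -65 to -36: ggcgggccccTTCtgGAAggTTCtaagata
HSPB1, chr7:76302473-76302522, plus strand, positions -200 to -151: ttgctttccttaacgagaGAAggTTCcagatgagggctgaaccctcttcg
DNAJB1, chr19:14518428-14518487, minus strand, positions -90 to -31: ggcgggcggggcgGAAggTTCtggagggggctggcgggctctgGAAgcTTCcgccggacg
HSPD1, chr2:197500061-197500090, minus strand, positions -250 to -221: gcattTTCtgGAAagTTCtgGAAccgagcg

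The HSPA1A and HSPA1B stretches were equal at 141 of 149 bases, and both hold a single pair at the same place. HSP90AA1, HSPA8 and HSPD1 show such runs, while the DNAJB1 stretch shows a pair at each of 2 places. Not printed are a second run of HSPA8, starting at position -230, and a further pair of DNAJB1, at position 2 of a second annotated start. The HSPA8 and HSPD1 stretches lie inside exons of longer annotated transcripts of the same genes, and the others lie outside annotated exons. The windows of BAG3, HSPH1 and HSPE1 held no match to these letters. The same holds for the window of another annotated start each of HSPD1 (197500274), HSP90AA1 (102139749) and DNAJB1 (14529271). A match is a description of the sequence and was not measured as a binding site in these data.

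The 10 genes differed widely in level. Scaled per kilobase of exon, mean levels in Prol were 539 ± 36.6 CPM per kb (SD, n = 3) for HSP90AA1 and 528 ± 39.7 for HSPA8, a pair that did not differ beyond this spread. HSPB1 followed at 121 ± 12.6 CPM per kb, and then HSPD1 at 96.0 ± 5.35 and HSPE1 at 64.7 ± 6.83. The lowest of the 10 were DNAJB1 at 14.95 ± 1.08, HSPA1A at 11.4 ± 1.07 and HSPA1B at 8.35 ± 0.556 CPM per kb. As reads that HSPA1A and HSPA1B have in common were not counted, the levels of these near copies may be understated and their place below DNAJB1 is uncertain. In Sen(IR) the top and the bottom of this order held the same genes, with HSPA8 at 380 ± 2.26 and HSP90AA1 at 377 ± 6.97 CPM per kb, whereas BAG3, at 39.2 ± 0.787, stood above HSPE1, at 31.7 ± 1.13, and HSPH1, at 25.1 ± 0.955 CPM per kb. In Sen(IR)+UK5099, BAG3 at 48.3 ± 1.19 CPM per kb also stood above HSPD1 at 35.8 ± 1.73. The length used holds every annotated exon base of a gene, 7629 for HSPD1, 8391 for HSPH1, 8188 for DNAJB1 and 2737 for BAG3. The order of these genes therefore depends on the annotation. In CPM, HSPD1 was above BAG3 with UK5099 (273 and 132), and HSPH1 was above BAG3 in Sen(IR) (211 and 107). BAG3 remained above HSPE1 in Sen(IR), which was at 57.9 CPM.

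**Figure D1:**
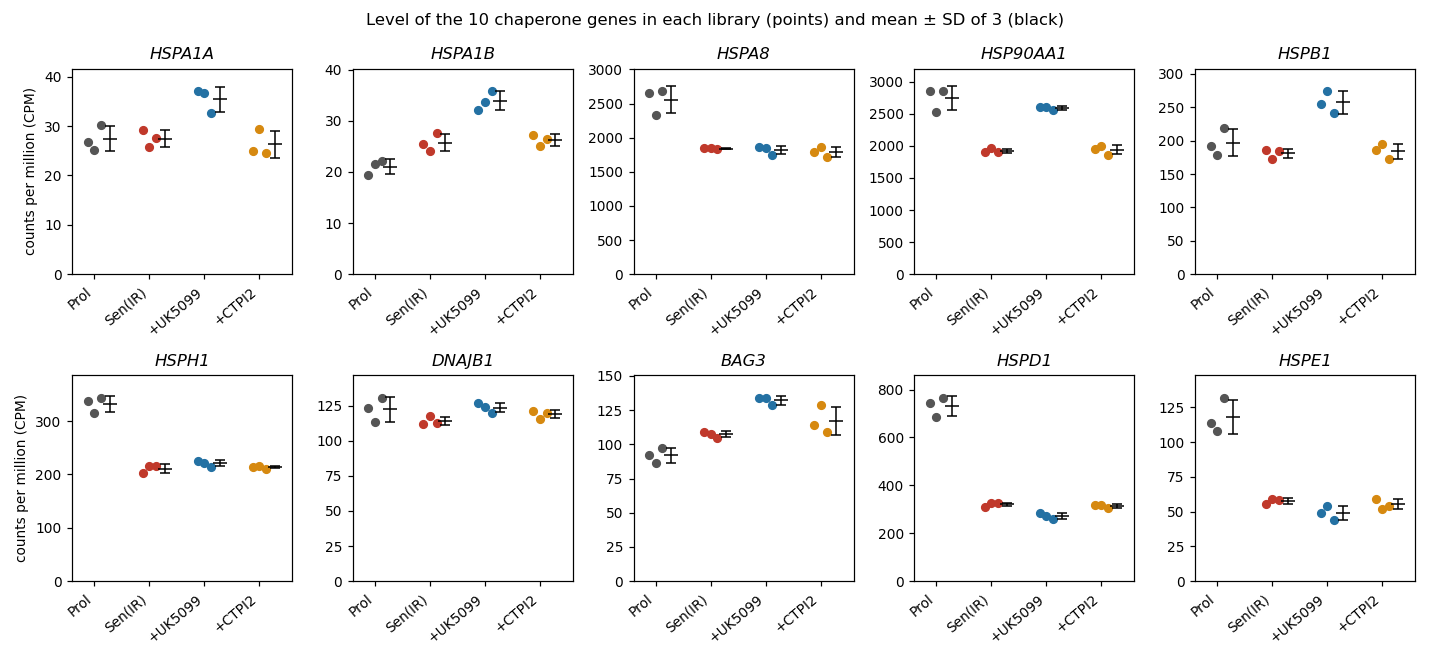
Level of each of the 10 genes in every library (points, in CPM) with the mean and SD of the 3 libraries of each group (black), on linear axes that start at 0. HSPD1, HSPE1, HSPH1 and HSPA8 are highest in the 3 Prol libraries, HSP90AA1 is high in both Prol and Sen(IR)+UK5099, and HSPA1A, HSPA1B, HSPB1 and BAG3 have their highest means with UK5099.

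The first comparison, Sen(IR) against Prol, asks how irradiation-induced senescence altered these genes. The mitochondrial pair HSPD1 and HSPE1 fell most, to less than 0.5 of the Prol level, and HSPH1 and HSP90AA1 fell less, while the stress-induced members did not rise past the fold limit. By edgeR's quasi-likelihood test, with a call needing a Benjamini-Hochberg adjusted p under 0.05 over all 16251 genes tested and an absolute log2 fold change over 0.5, 4 of the 10 genes were lower in Sen(IR) and 0 were higher. Across all genes tested 22.4% were called lower and 24.8% higher, so 47.2% were called in either direction, and the members' share of 4 in 10 was near that background. At an adjusted p under 0.05 and any fold, 5 members were lower and 2 higher, where 34.5% of all genes were lower and 34.1% higher. The 3 Sen(IR) libraries did not overlap the 3 Prol libraries for 7 members, against 70.9% of all genes tested, and the median log2 fold change was -0.30 over the 10 members and 0.01 over all genes.

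HSPD1 (ENSG00000144381), which encodes HSP60, the barrel of the mitochondrial chaperonin, lies on chromosome 2 at 197486584 to 197516737 on the minus strand (GRCh38, GENCODE v44). It stood at 742.5, 687.0 and 766.6 CPM in the 3 Prol libraries and at 311.6, 324.5 and 325.0 CPM in Sen(IR). Every Prol library was above every Sen(IR) library, and the mean in Prol was 2.29-fold that in Sen(IR). The log2 fold change was -1.19 (SE 0.0518, adjusted p = 4.01e-15 by edgeR), and it was the largest of the 10 in size.

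HSPE1 (ENSG00000115541), the HSP10 lid of the same chamber, lies beside HSPD1 at 197500140 to 197503449 on the plus strand. The RefSeq starts of the divergent genes nearest to each other are 105 bases apart. HSPE1 was at 113.7, 108.3 and 132.0 CPM in Prol and at 55.5, 59.4 and 58.7 CPM in Sen(IR), without overlap. The log2 fold change was -1.03 (SE 0.0769, adjusted p = 6.03e-11 by edgeR). Of its exon bases 17.94% are shared with other annotated genes, HSPD1 and the readthrough gene HSPE1-MOB4, so these counts may hold, or have lost, some reads of the others.

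HSPH1 (ENSG00000120694, chromosome 13, 31134973 to 31162388, minus strand) encodes HSP110, a relative of HSP70 that serves it as an exchange factor. Its levels were 337.7, 315.3 and 344.0 CPM in Prol and 201.8, 216.2 and 215.0 CPM in Sen(IR), again without overlap. The log2 fold change was -0.66 (SE 0.0491, adjusted p = 6.24e-11 by edgeR).

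HSP90AA1 (ENSG00000080824, chromosome 14, 102080742 to 102139699, minus strand) encodes the stress-responsive cytosolic HSP90, which completes the folding of kinases and steroid receptors among other clients. It was at 2861, 2532 and 2850 CPM in Prol and at 1909, 1964 and 1897 CPM in Sen(IR). The groups did not overlap, and Prol replicate 2 was the lowest Prol library. The log2 fold change was -0.51 (SE 0.0499, adjusted p = 4.74e-09 by edgeR), just past the fold limit. It moved to the other side of that limit without Prol replicate 1 (-0.48), without Prol replicate 3 (-0.49) and with RLE scaling (-0.49969), and to -0.39 with upper-quartile scaling, with adjusted p from 3.07e-11 to 2.41e-07 over the fits that left out a library.

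HSPA8 (ENSG00000109971, chromosome 11, 123057489 to 123063230, minus strand), the constitutive cytosolic HSP70, stood just inside the fold limit. Its Prol libraries were at 2649, 2338 and 2690 CPM and its Sen(IR) libraries at 1842, 1851 and 1829 CPM. All Prol libraries were higher, beyond the spread between replicates, with a log2 fold change of -0.48 (SE 0.0527, adjusted p = 4.16e-08 by edgeR). Without Prol replicate 2 the value was -0.54 and past the limit. HSPA8 has 15.05% of its exon bases in common with other genes, including the small nucleolar RNA genes SNORD14C and SNORD14D, and it has processed pseudogenes whose shared reads a count of unique reads leaves out.

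BAG3 and HSPB1 are partners in the handling of misfolded proteins: BAG3 is an HSP70 exchange factor that leads clients to autophagy, and HSPB1 (HSP27) is a small heat shock protein that holds unfolded clients. BAG3 (ENSG00000151929, chromosome 10, 119651380 to 119677819, plus strand) was at 92.1, 86.5 and 97.4 CPM in Prol and at 109.1, 107.8 and 104.9 CPM in Sen(IR). The Sen(IR) libraries were all higher, by 0.22 on the log2 scale (SE 0.0610, adjusted p = 0.00284 by edgeR), which is under the fold limit. HSPB1 (ENSG00000106211, chromosome 7, 76302673 to 76304295, plus strand) was at 192.7, 178.9 and 219.1 CPM in Prol and at 185.3, 173.3 and 184.4 CPM in Sen(IR). These groups overlapped, and the difference of -0.12 (95% interval -0.26 to 0.02, adjusted p = 0.113 by edgeR) was within the replicate spread. Without Prol replicate 2 its adjusted p was 0.0136 at a log2 fold change of -0.19.

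DNAJB1 (ENSG00000132002, chromosome 19, 14514769 to 14560391, minus strand), the HSP40 that delivers clients to HSP70 and stimulates its ATPase, was at 123.4, 113.1 and 130.8 CPM in Prol and at 112.1, 117.3 and 112.9 CPM in Sen(IR). The groups overlapped, and the log2 fold change was -0.10 (95% interval -0.22 to 0.01, adjusted p = 0.105 by edgeR). It was 0.02 with upper-quartile scaling, and -0.16 with an adjusted p of 0.0127 without Prol replicate 2.

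HSPA1A (ENSG00000204389) and HSPA1B (ENSG00000204388) encode the stress-inducible HSP70 and lie on the plus strand of chromosome 6, at 31815543 to 31817946 and 31827738 to 31830254, 9792 bases apart. Their coding sequences are equal at 1919 of 1923 bases. Of the 150-base windows of the HSPA1A transcript 69.6% also occur in HSPA1B, and of those of HSPA1B 66.1% occur in HSPA1A. As reads matching more than 1 place were not counted, the counts can hold only part of their reads and the split between the genes is uncertain. The windows are single, whereas the reads were paired, and the share of pairs with both reads in common sequence was not computed. HSPA1A was at 26.8, 25.2 and 30.2 CPM in Prol and at 29.1, 25.7 and 27.6 CPM in Sen(IR), with overlap, and its log2 fold change was 0.00 (95% interval -0.18 to 0.18, adjusted p = 0.993 by edgeR). HSPA1B was at 19.4, 21.5 and 22.1 CPM in Prol and at 25.5, 24.2 and 27.6 CPM in Sen(IR), without overlap, and it was higher by 0.29 (SE 0.0773, adjusted p = 0.00214 by edgeR), under the fold limit. Of the HSPA1B exon bases 36.55% are shared with the unnamed gene ENSG00000285565. With the counts of HSPA1A and HSPA1B summed, the log2 fold change was 0.13 (SE 0.0624, adjusted p = 0.0616 by edgeR).

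**Figure D2:**
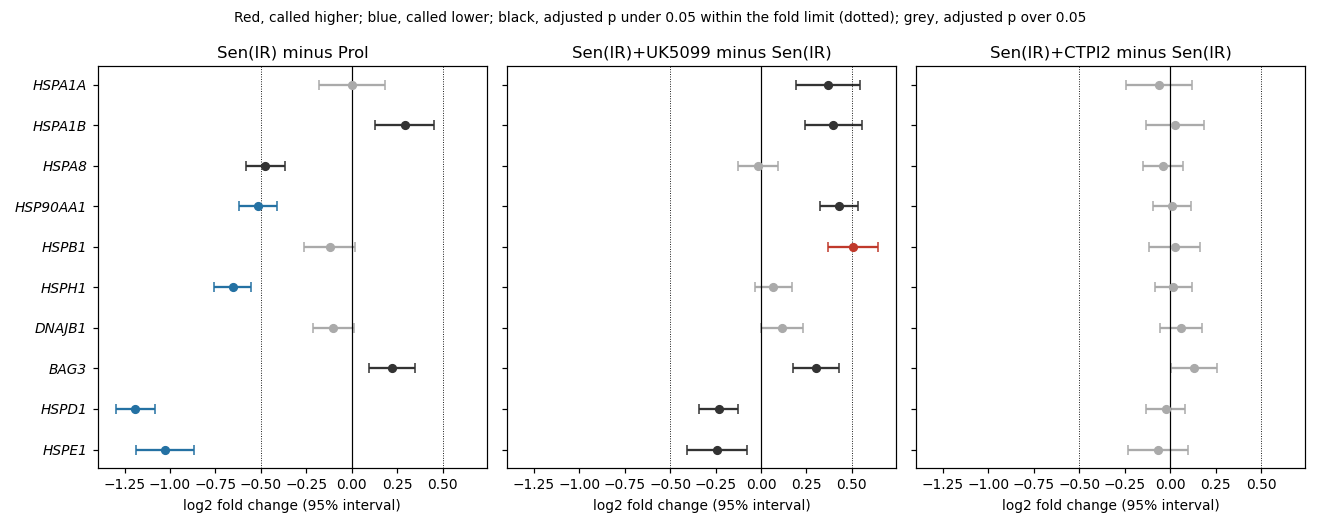
Log2 fold change of each of the 10 genes with its 95% interval in the comparisons of Sen(IR) with Prol, of Sen(IR)+UK5099 with Sen(IR) and of Sen(IR)+CTPI2 with Sen(IR). Colours mark genes past both limits, black marks an adjusted p under 0.05 within the fold limit (dotted lines at 0.5) and grey marks the rest. In the first panel 4 genes are called lower, in the second HSPB1 is called higher, and in the third all 10 intervals lie within the fold limit.

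Inhibition of the pyruvate carrier in senescent cells was addressed by Sen(IR)+UK5099 against Sen(IR). The cytosolic genes HSPB1, HSP90AA1, HSPA1B, HSPA1A and BAG3 were higher with UK5099, by 1.23 to 1.42-fold, while the mitochondrial pair HSPD1 and HSPE1 was lower, by 1.17 and 1.18-fold. HSPB1 alone rose past the fold limit, so that 1 of 10 members was called higher and 0 lower, against 8.76% of all genes called higher, 12.1% called lower and 20.8% called in either direction. At an adjusted p under 0.05 and any fold, 5 members were higher and 2 lower by edgeR, where 21.9% of all genes were higher and 23.5% lower. The groups did not overlap for 8 members, against 56.6% of all genes, and the median log2 fold change was 0.21 over the members and 0.01 over all genes.

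HSPB1 was at 254.7, 274.9 and 241.9 CPM with UK5099 and at 185.3, 173.3 and 184.4 CPM in Sen(IR). All UK5099 libraries were higher than all the others of the study, Prol included. The log2 fold change was 0.51 (SE 0.0669, adjusted p = 1.84e-06 by edgeR). It was under the fold limit without Sen(IR) replicate 2 (0.48), without Sen(IR)+UK5099 replicate 2 (0.46) and in a fit of only these 2 groups (0.49931), with adjusted p from 4.00e-06 to 5.38e-05 over the fits that left out a library.

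HSP90AA1 was at 2602, 2611 and 2560 CPM with UK5099, above all Sen(IR) libraries. The log2 fold change was 0.43 (SE 0.0498, adjusted p = 2.84e-07 by edgeR). Its level with UK5099 overlapped that of Prol, where the log2 fold change was -0.08 (95% interval -0.19 to 0.02, adjusted p = 0.129 by edgeR), although it was -0.14 with an adjusted p of 0.00691 without Prol replicate 2 and 0.06 with upper-quartile scaling.

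HSPA1A was at 37.2, 36.6 and 32.6 CPM with UK5099, and HSPA1B was at 32.2, 33.7 and 35.9 CPM. For both genes every UK5099 library was above every Sen(IR) library. The log2 fold changes were 0.37 (SE 0.0853, adjusted p = 0.00123 by edgeR) for HSPA1A and 0.40 (SE 0.0746, adjusted p = 1.43e-04 by edgeR) for HSPA1B, and the summed counts gave 0.38 (SE 0.0613, adjusted p = 2.305e-05). BAG3 was at 134.3, 134.1 and 128.5 CPM with UK5099, likewise above all Sen(IR) libraries, with a log2 fold change of 0.30 (SE 0.0603, adjusted p = 2.81e-04 by edgeR).

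Of the mitochondrial pair, HSPD1 was at 286.1, 273.1 and 259.7 CPM with UK5099, below all Sen(IR) libraries, and its log2 fold change was -0.23 (SE 0.0516, adjusted p = 8.63e-04 by edgeR). HSPE1 was at 49.3, 53.8 and 43.8 CPM, also below all Sen(IR) libraries, with a log2 fold change of -0.24 (SE 0.0790, adjusted p = 0.0164 by edgeR). The HSPE1 difference was less certain than that of HSPD1, since its adjusted p was 0.120 without Sen(IR)+UK5099 replicate 3, 0.0608 without Sen(IR) replicate 2 and 0.0506 without Sen(IR) replicate 3.

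The other 3 members passed neither limit. DNAJB1 was at 126.8, 124.1 and 119.9 CPM with UK5099, above all Sen(IR) libraries, but its difference of 0.12 had an adjusted p of 0.0936 by edgeR, or 0.0485 at 0.11 in a fit of only these 2 groups. HSPH1 was at 225.9, 222.2 and 214.8 CPM with a difference of 0.07 (95% interval -0.04 to 0.17, adjusted p = 0.286 by edgeR). HSPA8 was at 1858, 1852 and 1749 CPM with a difference of -0.02 (95% interval -0.13 to 0.09, adjusted p = 0.824 by edgeR). HSPH1 and HSPA8 overlapped with Sen(IR), and both intervals lie within the fold limit.

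The effect of the citrate carrier inhibitor was addressed by Sen(IR)+CTPI2 against Sen(IR), and no member passed the test. Of the 10 genes 0 were called by edgeR's quasi-likelihood test and 0 by DESeq2, where edgeR called 0.166% of all genes, 0.0185% higher and 0.148% lower. At an adjusted p under 0.05 and any fold 0 members were found, against 0.0861% of all genes higher and 0.400% lower, and at an unadjusted p under 0.05 there was 1 member, against 7.27% of all genes. The 10 log2 fold changes ran from -0.07 (HSPE1) to 0.13 (BAG3), with a median of 0.01. BAG3, the gene with the unadjusted p of 0.0446, was at 113.8, 128.9 and 109.2 CPM with CTPI2 and at 109.1, 107.8 and 104.9 CPM in Sen(IR). These libraries did not overlap, though only CTPI2 replicate 2 stood well apart, and the adjusted p was 0.668. The groups overlapped for the other 9 members, and groups without overlap were found for 15.1% of all genes.

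The intervals bound what could have been missed with CTPI2. For HSP90AA1, at 1952, 1999 and 1864 CPM, the difference was 0.01 (95% interval -0.09 to 0.11, adjusted p = 0.987 by edgeR). For HSPD1, at 319.5, 319.9 and 306.1 CPM, it was -0.02 (95% interval -0.13 to 0.08, adjusted p = 0.970). The widest intervals belonged to the least abundant genes, such as HSPA1A, at 25.0, 29.4 and 24.5 CPM, with a difference of -0.06 (95% interval -0.24 to 0.12, adjusted p = 0.944).

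The inhibitors were set against each other in Sen(IR)+UK5099 against Sen(IR)+CTPI2, with the reservation that their doses and targets differ. With UK5099, 5 members were higher and 1 lower at an adjusted p under 0.05 by edgeR, but 0 passed the fold limit with edgeR or DESeq2, against 8.20% of all genes called higher, 11.7% called lower and 19.9% in either direction. At any fold, 21.1% of all genes were higher and 23.4% lower at that adjusted p, and 7 members had an unadjusted p under 0.05, against 51.2% of all genes. HSPB1 was nearest to the limit, with a log2 fold change of 0.48 (SE 0.0667, adjusted p = 3.88e-06 by edgeR). HSPA1A differed by 0.43, HSP90AA1 by 0.42, HSPA1B by 0.37 and BAG3 by 0.17, all higher with UK5099, and HSPD1 was lower by 0.21 on the log2 scale (-0.21, adjusted p = 0.00230 by edgeR). For 5 members the UK5099 and CTPI2 libraries were fully apart, against 53.6% of all genes. The BAG3 difference, with an adjusted p of 0.0228 and overlapping libraries, lost that level in 4 fits that left out a library, among them 0.118 without Sen(IR)+CTPI2 replicate 3. HSPE1, at -0.17 with an adjusted p of 0.0801, was at -0.25 with an adjusted p of 0.0231 without Sen(IR)+UK5099 replicate 2. Without Sen(IR)+CTPI2 replicate 2, HSPA1A and HSPB1 passed the fold limit at 0.52 each, and HSPB1 did so too without Sen(IR)+UK5099 replicate 3 and with upper-quartile scaling (0.51).

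Both inhibitor groups were also compared with Prol, which shares its 3 libraries with the first comparison, so these values are not independent of it. In Sen(IR)+UK5099 against Prol, 3 members were called lower and 2 higher by edgeR, against 26.2% and 26.9% of all genes and 53.1% in either direction. At an adjusted p under 0.05 and any fold 4 were lower and 4 higher, against 37.0% and 36.4%. HSPD1 fell by 1.42 and HSPE1 by 1.27 on the log2 scale (-1.42, SE 0.0521, and -1.27, SE 0.0771), and HSPH1 by 0.59 (-0.59, SE 0.0489). HSPA1B rose by 0.69 (SE 0.0750, adjusted p = 2.64e-08 by edgeR) and BAG3 by 0.52 (SE 0.0604, adjusted p = 6.51e-08), though BAG3 was at 0.48 without Prol replicate 2. The summed HSPA1A and HSPA1B counts rose by 0.52 (SE 0.0612, adjusted p = 9.73e-08 by edgeR). With upper-quartile scaling HSPH1 was at -0.45.

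The other members with UK5099 lay within the fold limit of Prol. HSPA8 was lower by 0.49 on the log2 scale (-0.49, SE 0.0526, adjusted p = 1.98e-08 by edgeR) and passed the limit without Prol replicate 2 (-0.55), without Sen(IR)+UK5099 replicate 1 (-0.51) and without Sen(IR)+UK5099 replicate 2 (-0.50486). HSPA1A was higher by 0.37 and HSPB1 by 0.38, and both passed the limit with upper-quartile scaling (0.51 and 0.52). DNAJB1 differed by 0.01 (adjusted p = 0.835 by edgeR), or by 0.15 with an adjusted p of 0.0152 with upper-quartile scaling. The groups did not overlap for 8 of the 10, against 74.5% of all genes.

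In Sen(IR)+CTPI2 against Prol, 5 members were called lower and 0 higher by edgeR, against 21.9% and 24.8% of all genes and 46.8% in either direction. At an adjusted p under 0.05 and any fold 5 were lower and 2 higher, against 34.0% and 34.5%. HSPD1 was at -1.22 (SE 0.0518), HSPE1 at -1.10 (SE 0.0768), HSPH1 at -0.64 (SE 0.0490), HSPA8 at -0.51 (SE 0.0527) and HSP90AA1 at -0.50 (SE 0.0499). The calls of HSPA8 and HSP90AA1 lay at the fold limit and were lost without Prol replicate 1 (-0.49 and -0.47), without Prol replicate 3 (-0.48 and -0.48) and without Sen(IR)+CTPI2 replicate 3 (-0.49 and -0.48). HSP90AA1 was also within the limit with RLE scaling (-0.49539) and with DESeq2 (-0.49555), and upper-quartile scaling gave -0.40 for HSPA8 and -0.39 for HSP90AA1. BAG3 was higher by 0.35 (SE 0.0607) and HSPA1B by 0.32 (SE 0.0767), under the fold limit. The summed HSPA1A and HSPA1B counts differed by 0.12 (SE 0.0621, adjusted p = 0.102 by edgeR). HSPA1A differed by -0.06, DNAJB1 by -0.04 and HSPB1 by -0.10, all with an adjusted p over 0.05 and all above 0 with upper-quartile scaling (0.05, 0.07 and 0.02), although HSPB1 was at -0.16 with an adjusted p of 0.0296 without Prol replicate 2. For 7 members the groups were fully apart, against 70.1% of all genes.

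Across the 12 libraries, some members varied together. Pearson correlations of log2 CPM were 0.99 for HSPD1 with HSPE1, 0.98 for HSPA8 with HSPH1 and 0.97 for HSPA8 with HSPD1. HSPA1A correlated at 0.95 with HSPB1 and at 0.65 with its near copy HSPA1B, and HSPA1B at 0.85 with BAG3. BAG3 correlated at -0.84 with HSPD1, and HSP90AA1 at 0.69 with HSPA8 and 0.64 with HSPB1. These values describe 12 libraries that share 4 treatments and are given without a test.

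Among 12141 genes with a mean log2 CPM above 1, the genes most like each member over the 12 libraries were found in the same way. HSPD1 was followed most closely by CDK2, TRIM28 and ACTG1 (r = 0.998 each), and HSPE1 by CDV3, VAPA and LSM3 (r from 0.993 to 0.994). HSPH1 was followed by LYPD1, MCM6 and TUBA1C (r from 0.994 to 0.996), and HSPA8 by IER5, PTPN18 and PPME1 (r from 0.990 to 0.996). HSP90AA1, which was high in Prol and with UK5099, was most like PICALM, ODC1 and DCLK2 (r from 0.978 to 0.982). HSPA1A was most like HSPB1, HSD17B7 and LINC00899 (r from 0.904 to 0.946), HSPA1B like RALGPS1, RYK and ATXN7L3B (r from 0.975 to 0.979), HSPB1 like NMT2, ARID5A and KAT2B (r from 0.946 to 0.961) and BAG3 like MAGI2, CMTM7 and TEC (r = 0.968 each). DNAJB1, which differed least between groups, had no gene above r = 0.841, with AUP1, IFFO1 and JUN (r from 0.828 to 0.841) the nearest.

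The 10 genes were then set beside 83 other chaperone genes in 9 lists, of which 80 passed the filter on low counts. The 3 that did not were HSPA6, HSPA12B and HSPB3. HSPA6, named here after its values were seen, is an HSP70 made almost only under heat or proteotoxic stress, and it had at most 8 counts in any library, with group means of 0.103 to 0.208 CPM. In Sen(IR) against Prol, 12 of the 80 were called higher and 27 lower by edgeR (48.8%, against 47.2% of all genes). By direction, 24.8% of all genes were called higher and 22.4% lower, which are the shares to set beside each list's counts below.

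The TRiC chaperonin, the cytosolic ring that folds actin and tubulin, had 7 of 8 subunits called lower in Sen(IR), with a list median of -0.80. CCT5 had the largest fall, with a log2 fold change of -1.12 (475 ± 30.5 CPM in Prol and 218 ± 7.18 in Sen(IR), SD, n = 3), and CCT3, at -0.46, was within the fold limit. CCT5 shares 30.76% of its exon bases with an unnamed gene. Among HSP90 and its co-chaperones 6 of 11 were called lower and 0 higher, with a median of -0.57. HSP90AB1, the constitutive cytosolic HSP90, fell by 0.61 (-0.61, SE 0.0477, adjusted p = 1.23e-10 by edgeR), and FKBP5, a steroid receptor co-chaperone, by 1.56 (-1.56, SE 0.0753).

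Of the other mitochondrial chaperones and proteases, 5 of 16 were called lower and 1 higher, with a median of -0.34. The matrix HSP70 HSPA9 was at 436 ± 11.7 CPM in Prol and 304 ± 8.54 in Sen(IR), a fall of 0.52 (-0.52, SE 0.0474, adjusted p = 1.65e-09 by edgeR), and the mitochondrial HSP90 TRAP1 fell by 0.74 (-0.74, SE 0.0788). TRAP1 shares 28.5% of its exon bases with other genes, among them DNASE1. Prefoldin, which hands actin and tubulin chains to TRiC, had 2 of 6 subunits called lower.

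The remaining lists were mixed in direction. The small heat shock protein list had 2 of 6 called higher, HSPB6 (34.0 ± 1.53 CPM in Prol and 108 ± 2.70 in Sen(IR), log2 fold change 1.66) and HSPB7 (1.65). The 1 called lower was HSPB11 (-1.17), which is in the list by its symbol and is named here after its values were seen. The lens and muscle chaperone CRYAB differed by -0.11 (adjusted p = 0.421 by edgeR). HSPB6 shares 38.28% of its exon bases with an unnamed gene. J-domain proteins had 5 of 14 called higher, with DNAJB4 at 1.32, and 3 lower, with DNAJC9 at -1.28 and 56.53% of its exon bases shared with FAM149B1. Other cytosolic HSP70 and HSP110 genes had 1 of 6 called higher and 2 lower, among them HSPA2 at -1.52. Exchange factors and ubiquitin links had 2 of 9 higher and 1 lower.

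Of the heat shock factors, HSF1 differed little in Sen(IR). It was at 43.8, 41.5 and 42.6 CPM in Prol and at 42.1, 37.6 and 41.8 CPM in Sen(IR), with overlap and a log2 fold change of -0.07 (adjusted p = 0.311 by edgeR). HSF2 was lower by 0.47 (-0.47, SE 0.0985, adjusted p = 2.20e-04 by edgeR), under the fold limit. Of the 4 genes in this list 1 was called higher, HSF4, named here after its values were seen. It was at 0.512, 0.472 and 0.558 CPM in Prol and at 1.33, 1.52 and 1.13 CPM in Sen(IR), from 11 to 32 counts a library, and its log2 fold change was 1.36 (SE 0.301, adjusted p = 4.01e-04 by edgeR). HSF4 shares 27.06% of its exon bases with an unnamed gene.

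**Figure D3:**
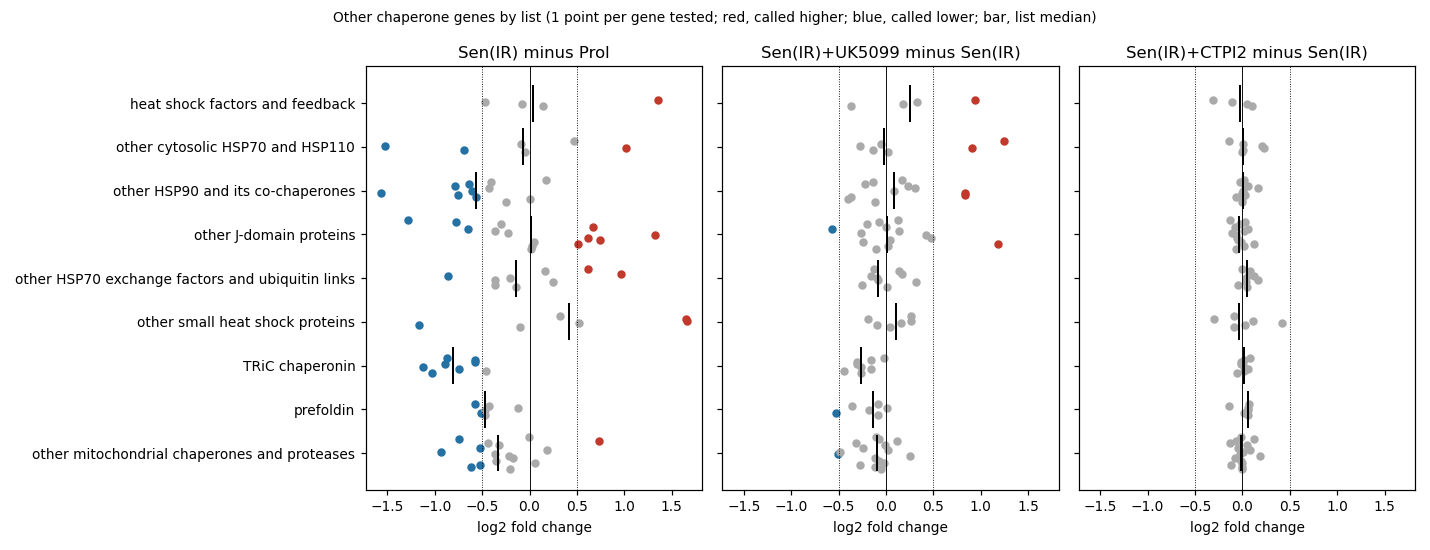
Log2 fold change of the 80 tested genes of the 9 other chaperone lists in the same 3 comparisons, with 1 point a gene (red, called higher, and blue, called lower), a bar at each list's median and dotted lines at the fold limit of 0.5. The 8 TRiC genes lie below 0 in the first and second panels, and no gene is coloured in the third.

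With UK5099, 6 of the 80 genes were called higher and 3 lower against Sen(IR) (11.2%, against 20.8% of all genes). The HSP110 relative HSPA4L rose most. It was at 79.0, 72.7 and 73.6 CPM with UK5099 against 29.0, 34.3 and 31.7 CPM in the untreated senescent cells, a log2 difference of 1.25 (SE 0.0671, adjusted p = 9.06e-13 by edgeR). Its libraries with CTPI2, at 28.7 ± 0.794 CPM, overlapped those of Sen(IR). The J-domain gene DNAJA4 rose by 1.18 (SE 0.180) and the HSP70 gene HSPA1L by 0.90 (SE 0.199), both at mean levels under 5 CPM. HSPA1L lies on the minus strand, and its start is 260 bases from that of HSPA1A on the plus strand. The HSP90 co-chaperones FKBP4 and FKBP5 and the factor HSF4 were the other genes called higher, the first and the last of these being named after their values were seen, and HSF4 was at 0.94 (SE 0.239). FKBP4 was at 138.1, 133.1 and 124.5 CPM with UK5099, above the 76.6, 73.0 and 72.0 CPM of Sen(IR). FKBP5 was at 13.5 ± 0.341 CPM in Sen(IR), 24.0 ± 1.66 with UK5099 and 13.4 ± 0.572 with CTPI2.

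The genes called lower with UK5099 were the ribosome-bound J-domain protein DNAJC2 (-0.57, SE 0.0701), the prefoldin subunit PFDN2 (-0.52, SE 0.0924) and GRPEL1, the exchange factor of mitochondrial HSP70 (-0.51, SE 0.0684). DNAJC2 shares 21.06% of its exon bases with other genes, among them PMPCB. All 8 TRiC genes had negative values, 7 of them at an adjusted p under 0.05 by edgeR, where 23.5% of all genes were lower at that level, but 0 passed the fold limit. HSPA9 was lower by 0.25 (-0.25, SE 0.0476, adjusted p = 2.04e-04 by edgeR), under the fold limit, and TRAP1 differed by -0.08 (adjusted p = 0.469). HSP90AB1 differed by 0.08 (adjusted p = 0.183), unlike its paralog HSP90AA1 at 0.43, and the difference between the paralogs was not tested. HSF1 was higher by 0.18 (adjusted p = 0.0251) and HSF2 by 0.33 (adjusted p = 0.00944), both under the fold limit, and CRYAB differed by 0.04 (adjusted p = 0.788).

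With CTPI2, 0 of the 80 genes were called against Sen(IR) by edgeR or by DESeq2, and 3 had an unadjusted p under 0.05, against 7.27% of all genes. HSF1 differed by 0.05, HSF2 by -0.11, HSP90AB1 by 0.01, HSPA9 by -0.04, TRAP1 by 0.12 and CRYAB by -0.09, with adjusted p from 0.840 to 0.990. Between the inhibitors, 7 genes were higher and 2 lower with UK5099 (11.2%, against 19.9% of all genes). Among those with a mean log2 CPM above 1, the largest increases were HSPA4L at 1.39, DNAJA4 at 1.06 and FKBP5 at 0.84, and the decreases were DNAJC2 at -0.63 and PFDN2 at -0.54. The less abundant HSF4 was at 1.25. Against Prol, 14 were higher and 34 lower with UK5099 (60%, against 53.1% of all genes) and 13 higher and 29 lower with CTPI2 (52.5%, against 46.8%). Of these, leaving aside genes whose mean log2 CPM was 1 or less, HSPB6 had the largest increase in both (1.92 and 1.77), HSPA2 the largest decrease with UK5099 (-1.79) and FKBP5 with CTPI2 (-1.57). HSF4, under that level, was at 2.29 with UK5099 and 1.04 with CTPI2. In the RefSeq windows of these lists, a GAANNTTC or TTCNNGAA pair was present in 21 of 68 genes with a window (30.882%).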

How the data were processed

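RNA sequencing libraries of 4 groups of 3 were analysed. The deposited table holds raw counts per gene, not normalized; per the methods and the submitters' processing notes, the authors used Trimmomatic 0.36 to trim paired 150-base reads, STAR 2.5.2b for alignment to GRCh38 and featureCounts (Subread 1.5.2) to count unique reads in exons. The annotation release is not given in the sources used here, and strand-specific counting is stated only conditionally, so overlapping genes may share reads. Unique counting lowers the counts of near-identical genes.

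Counts were fitted in R 4.3.3 with edgeR 4.0.16 (filterByExpr, TMM, glmQLFit, glmQLFTest) in 1 model of 12 libraries without a replicate term. The filter kept 16251 of 57500 genes, with 99.91% of the counts. Benjamini-Hochberg adjustment ran over these genes, and calls needed an adjusted p under 0.05 with a log2 fold change beyond 0.5 in either direction. SEs were derived from the F statistic, and intervals are 95%. The common dispersion equals a 6.116% coefficient of variation. CPM used TMM-scaled totals, and exon lengths and positions came from GENCODE v44. Promoter windows came from RefSeq, and all 10 members matched. Within groups, chi-square per gene between libraries was 2.279 to 13.58, above sampling noise, so all were kept as separate replicates. It was 8.073 to 13.58 for pairs of Prol libraries and 2.279 to 3.379 for pairs of Sen(IR) libraries. The fit nonetheless used a spread shared by the 4 groups. The fit was tested on simulated data.

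The 10 genes, the 9 lists and the tests were chosen with earlier results of these data known. Named among the lists were HSF1, HSF2, HSP90AB1, HSPA9, TRAP1 and CRYAB and, per comparison, up to 3 called genes with the largest change in each direction and a mean log2 CPM above 1. Likeness is the Pearson correlation of log2 CPM, 3 genes a member. Alternatives were the Wald test of DESeq2 1.42.0, upper-quartile or RLE scaling, no filter, only the 2 groups compared, a replicate block, an unadjusted p limit, a fold limit of 1, summing HSPA1A with HSPA1B and leaving out each library.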

Additional observations from a re-analysis of the deposited data

How the results depend on the processing

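Of the 60 log2 fold changes of members, 58 kept their direction and whether they were called with RLE scaling, 60 without a filter and with an unadjusted p limit, 59 with DESeq2, 58 with only the 2 groups compared, 51 with a fold limit of 1 and 47 with upper-quartile scaling. Apart from the fits that left out a library and the summing of HSPA1A with HSPA1B, the adjusted p alone crossed 0.05 for DNAJB1 in UK5099 against Sen(IR) (0.0485 with only the 2 groups compared) and UK5099 against Prol (0.0152 with upper-quartile scaling). For HSPA1B alone the adjusted p by edgeR was 0.00214 (Sen(IR) against Prol) and 8.99e-04 (CTPI2 against Prol). The summed counts gave 0.0616 and 0.102 there. Upper-quartile scaling moved the median of all genes by 0.121 (Sen(IR) against Prol), 0.1397 (UK5099 against Prol) and 0.1119 (CTPI2 against Prol). It turned the direction of DNAJB1 in Sen(IR) against Prol (0.0193), HSPA8 in UK5099 against Sen(IR) (0.00206), HSP90AA1 in UK5099 against Prol (0.0552) and, in CTPI2 against Prol, HSPA1A (0.0517), DNAJB1 (0.0693) and HSPB1 (0.0151), all with adjusted p from 0.267 to 0.981. The number of members called became 1 for UK5099 against CTPI2 and 3 for CTPI2 against Prol with it. Upper-quartile scaling also took the call of HSP90AA1 in Sen(IR) against Prol (-0.39). In UK5099 against Prol it took that of HSPH1 (-0.45) and added calls of HSPA1A (0.51) and HSPB1 (0.52). The fit of 2 groups gave 0 members called for UK5099 against Sen(IR), and -0.0135 for HSPA1A in Sen(IR) against Prol.

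The fold limit of 1 left 2 members called in Sen(IR) against Prol, 0 in UK5099 against Sen(IR), 2 in UK5099 against Prol and 2 in CTPI2 against Prol. For the other chaperones it left 11 (Sen(IR) against Prol), 2 (UK5099 against Sen(IR)), 3 (UK5099 against CTPI2), 19 (UK5099 against Prol) and 12 (CTPI2 against Prol). Summing HSPA1A and HSPA1B gave -0.0181 for CTPI2 against Sen(IR), where HSPA1B alone was above 0, and 0.12 for CTPI2 against Prol, where HSPA1A alone was below 0. Summing repeated symbols gave no value, since 0 members had more than 1 identifier.

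A replicate block did not change a call among the members. It gave -0.00015 for HSPA1A in Sen(IR) against Prol and left 4 members called there. Same-numbered libraries of different groups did not deviate together (18 correlations, from -0.0511 to 0.0423, of which 0 exceeded 0.1). These values show no common deviation by number, but they cannot tell whether same-numbered libraries were handled together.

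Leaving out 1 library moved the number of members called to 0 to 1 (UK5099 against Sen(IR)), 0 to 2 (UK5099 against CTPI2), 3 to 5 (Sen(IR) against Prol), 5 to 6 (UK5099 against Prol) and 3 to 5 (CTPI2 against Prol), and to 0 in every such fit of CTPI2 against Sen(IR). Directions turned only for differences whose adjusted p stayed over 0.05 in each of these fits: HSPA1A in Sen(IR) against Prol (-0.0559 to 0.0788) and CTPI2 against Prol (-0.150 to 0.0172), DNAJB1 in UK5099 against Prol (-0.0404 to 0.0636) and CTPI2 against Prol (-0.0964 to 0.00764), HSPA8 in UK5099 against Sen(IR) (-0.0322 to 0.0110) and UK5099 against CTPI2 (-0.00573 to 0.0504), and, in CTPI2 against Sen(IR), HSPA1B (-0.0156 to 0.0782), HSP90AA1 (-0.0114 to 0.0397), HSPH1 (-0.0148 to 0.0345) and HSPB1 (-0.0171 to 0.0711). The cause of these changes was not tested. HSPA1A and HSPA1B had the fewest counts of the members, 456 to 988 a library, and so the least depth behind their values.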
